A study of Mus musculus with 2 samples.

Results

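The genes described here are 44 genes that mouse cells use to prepare and carry out DNA replication, from origin licensing to the histone mRNA needed in S phase. They were taken by symbol from a list drawn up with earlier results of these data known, and were grouped by role in the replication machinery. All 44 were listed in both libraries of the series, out of 30614 features listed in at least 1 of them. The 2 libraries came from primary cultures of stromal vascular cells, 1 from the inguinal white depot (iWAT) and 1 from the interscapular brown depot (iBAT). Donors were, per the labels, wild-type C57BL/6N mice of 8 to 12 weeks, whose tissue was pooled per depot, and the cells were grown to 80% confluency before treatment. Per the labels, a depot had 4 cultures, an untreated one and 1 each given FGF1, FGF2 and FGF8 (5.5 nM, 48 h), and these entered a BD Rhapsody library together. The methods of the study list vehicle, FGF1 and FGF2 but not FGF8 for this experiment, and a different span of ages for the mice, so the sources differ on which cultures were merged. BD Rhapsody is a microwell system that gives each captured mRNA a cell barcode and a molecular tag. The files used here carry no treatment for a cell, so every value below describes a depot with its cultures merged, and nothing here bears on the effect of an FGF. With 1 library per depot no test was possible, a depot difference has no replicate behind it, and depot and library cannot be told apart.

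Before S phase, origins are licensed when the origin recognition complex, Cdc6 and Cdt1 load rings of the Mcm2 to Mcm7 helicase onto DNA. Cyclin E with its kinase and the E2F transcription factors then bring the cell across the G1/S boundary, the helicase is activated with Cdc45 and the GINS complex, and polymerases, the sliding clamp and its loader copy both strands. Many of these genes are known E2F targets whose mRNA rises in late G1 and S phase, whereas genes of the mitotic spindle peak later, in G2 and M. Preadipocytes in culture are known to divide until they reach confluence.

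After the cell filter of the published methods (more than 200 and fewer than 7500 detected genes, under 30% mitochondrial UMIs), 29744 iWAT cells and 28215 iBAT cells were kept. A UMI is that molecular tag, counted as 1 captured mRNA molecule. The kept cells held 501759241 UMIs in iWAT and 791392741 in iBAT, and the median cell had 16204 and 27235 UMIs, so the libraries differed in depth. Scrublet called 1.89% and 3.39% of the kept cells doublets, which stayed in. The libraries shared 8 cell barcodes. Levels are UMIs of a gene per 1000000 UMIs of the cells considered (CPM), and since they are not scaled to gene length they are compared between groups of cells and never between genes. Intervals are exact, at 95%, and cover counting error only. The mouse genome holds processed pseudogenes of Pcna and Tyms, and how reads matching several loci were counted is not given in the sources used here, so the levels of both are uncertain in that respect.

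The replication genes were higher in the iBAT library than in the iWAT library. Summed over all 44, they gave 1459.8 CPM in iWAT against 2028 in iBAT, a ratio of 1.39 (1.386 to 1.393). Of the 44 members, 42 were higher in iBAT, where 56.4% of all genes with at least 10 CPM in 1 of the libraries were. On the log2 scale the median depot ratio, always given as iBAT over iWAT, was 0.44 for the members and 0.05 for those 9081 genes. At 1.5-fold or more, 11 of 44 members were higher in iBAT against 9.47% of all genes, and 0 of 44 were higher in iWAT against 8.91% of all genes. Orc1, Gins1, Gins3 and Pole2 lay under 10 CPM in both libraries and were kept in the member counts.

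Depth per cell and cell makeup moved with this difference. Among cells with at least 1 UMI of Pdgfra, the receptor that marks preadipocytes and other fibroblasts, the members summed to 1589 CPM in iWAT against 2038 in iBAT, a ratio of 1.28 (1.279 to 1.287). This set held 17460 of the 29744 kept iWAT cells and 25927 of the 28215 kept iBAT cells. Its median cell had 18119 UMIs in iWAT and 27838 in iBAT, against 16204 and 27235 over all kept cells. The set thus also differs from all kept cells in depth. In the Pdgfra-positive cells 38 of 44 members were higher in iBAT against 56.7% of all genes. At 1.5-fold or more, 3 of 44 were higher in iBAT, where 8.75% of all genes were, and 0 of 44 were higher in iWAT, where 8.55% of all genes were. The summed level also rose with the UMIs of a cell. From the shallowest to the deepest of 4 equal groups of Pdgfra-positive cells it was 1299, 1510, 1656 and 1694 CPM in iWAT. In iBAT it was 1513, 1958, 2190 and 2209 CPM, higher than in iWAT in each group. The groups were ranked within a library and span different depths. The shallowest iBAT group ended at 22331 UMIs and the deepest iWAT group began at 23047. Over all kept cells, the 5588 iWAT cells under 10000 UMIs were at 1003 CPM and the other iWAT cells at 1504 CPM. No kept iBAT cell was under 10000 UMIs. Within matched windows of UMIs per cell the ratio was 1.09 at 10000 to 15000 UMIs, 0.907 at 15000 to 20000 and 1.04 at 20000 to 25000. These windows held 3765, 5031 and 3810 iWAT cells and 1122, 3058 and 5391 iBAT cells. The ratio was 1.21 at 25000 to 30000 UMIs, 1.36 at 30000 to 40000 and 1.20 at 40000 to 70000, the last with only 90 iWAT cells. The number of members higher in iBAT in the 6 windows was 28, 9, 25, 39, 42 and 31 of 44, in the same order. The share of all genes higher in iBAT within each window is not given here, so these counts have no background beside them. The depot ratio of the sum was below 1 in 1 of the 6 windows, chosen after the data were seen, and the part of depth in the overall ratio was not tested.

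**Figure D1:**
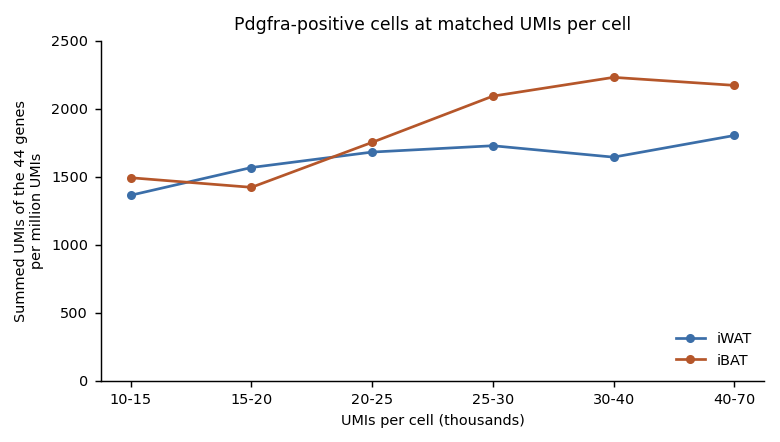
Summed level of the 44 replication genes (y axis, CPM) in Pdgfra-positive cells grouped by their own number of UMIs (x axis), with 1 line per library. The iBAT line lies under the iWAT line between 15000 and 20000 UMIs and above it in the other windows.

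Origin licensing genes were all higher in iBAT, with a summed ratio of 1.44 (1.43 to 1.45). Orc1, the largest subunit of the origin recognition complex, was at 6.65 CPM in iWAT against 7.23 in iBAT. Orc6, another subunit of that complex, was at 66.5 and 90.3 CPM. Cdc6, which brings the helicase to the origin, was at 14.7 and 18.9 CPM, and its partner Cdt1 was at 16.5 and 24.7 CPM. The 6 helicase subunits followed with unequal ratios. Mcm4 went from 58.6 to 94.7 CPM, a ratio of 1.62 (1.59 to 1.64), and Mcm3 from 29.7 to 45.5 CPM, a ratio of 1.53. Mcm5 was at 35.9 and 54.5 CPM and Mcm6 at 50.4 and 75.1 CPM. Mcm2 stood at 23.3 and 30.8 CPM, and Mcm7 at 28.0 and 33.0 CPM, a ratio of 1.18 (1.15 to 1.20) that was the smallest of the ring. So subunits that work in equal numbers in 1 ring differed in their depot ratio by more than the counting error.

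Helicase activation genes had a summed ratio of 1.32 (1.30 to 1.34). Mcm10, which helps to start the assembled helicase, was at 8.85 CPM in iWAT against 11.9 in iBAT. Cdc45, the helicase cofactor, was at 9.88 and 11.0 CPM, and its ratio fell to 1.02 (0.981 to 1.06) in Pdgfra-positive cells. The GINS subunits, which complete the active helicase, were at 5.93 and 8.40 CPM for Gins1, at 19.1 and 26.2 CPM for Gins2 and at 5.96 and 8.38 CPM for Gins3. Among the polymerases and primase the summed ratio was 1.27 (1.26 to 1.29). Pola1, the catalytic subunit of the polymerase that lays down primers, was at 15.8 and 21.1 CPM, its partner Pola2 at 15.3 and 20.4 CPM, and the primase Prim1 at 25.4 and 35.6 CPM. Pole, the leading strand polymerase, was at 8.37 and 10.4 CPM. Its accessory subunit Pole2 was at 4.05 and 4.26 CPM, and its ratio of 1.05 (0.995 to 1.11) was the only one among the 44 whose interval held 1 over all kept cells. In Pdgfra-positive cells its ratio was 0.991 (0.931 to 1.06). Pold1, the lagging strand polymerase, was at 20.9 and 22.4 CPM, with a ratio of 1.07 over all cells and 0.998 (0.971 to 1.03) in Pdgfra-positive cells.

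The sliding clamp, its loader and the lagging strand enzymes summed to a ratio of 1.43 (1.42 to 1.44). Pcna, the clamp itself, was at 173 CPM in iWAT against 266 in iBAT, a ratio of 1.54 (1.53 to 1.55). Lig1, which joins the fragments of the lagging strand, went from 36.2 to 65.4 CPM, a ratio of 1.81 (1.78 to 1.84). Fen1, which trims those fragments, was at 27.4 and 34.3 CPM, and Rpa2, a subunit of the complex that covers bare single strands, was at 15.1 and 18.3 CPM. The loader subunits did not move together. Rfc2 was at 58.4 and 74.5 CPM, Rfc3 at 24.3 and 30.6 CPM and Rfc5 at 24.4 and 32.1 CPM. Rfc4 ran the other way, with 14.95 CPM in iWAT against 12.84 in iBAT, a ratio of 0.858 (0.833 to 0.885) that was 0.788 (0.762 to 0.815) in Pdgfra-positive cells. It was the member furthest below 1.

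Nucleotide supply genes had a summed ratio of 1.40 (1.39 to 1.40). The ribonucleotide reductase subunits, which make deoxynucleotides, were at 113 and 162 CPM for Rrm1 and at 157 and 227 CPM for Rrm2. Tk1, the thymidine kinase of dividing cells, rose from 24.9 CPM in iWAT to 45.6 CPM in iBAT, a ratio of 1.83 (1.79 to 1.87). Tyms, the thymidylate synthase that makes the same product from scratch, was at 67.5 and 71.7 CPM, a ratio of 1.06 (1.05 to 1.08). In Pdgfra-positive cells Tyms was at 73.5 and 72.5 CPM, a ratio of 0.986 (0.971 to 1.002) whose interval held 1. The salvage enzyme and the synthase for thymidylate therefore had quite different depot ratios.

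G1/S regulators had the lowest summed ratio of the 7 roles, 1.21 (1.20 to 1.23). Ccne1, a cyclin that drives entry into S phase, was at 39.3 CPM in iWAT against 37.7 in iBAT, a ratio of 0.958 (0.941 to 0.976), whereas its sister Ccne2 was at 18.1 and 25.5 CPM. E2f1, an activator of replication genes, was at 45.0 and 46.6 CPM, with a log2 ratio of 0.05 that became -0.06 in Pdgfra-positive cells and -0.0033 when the libraries were scaled by the median ratio over genes. The repressors of the same family stood apart from it, with 13.1 and 16.5 CPM for E2f7 and 10.8 and 17.6 CPM for E2f8. Fbxo5, an inhibitor of the ubiquitin ligase that destroys S phase proteins, went from 14.3 to 26.8 CPM, and its ratio of 1.87 (1.82 to 1.92) was the highest among the 44. The remaining 5 genes act in checkpoint, repair, chromatin or histone mRNA and summed to a ratio of 1.43 (1.41 to 1.44). Clspn, a replication checkpoint adaptor, was at 15.8 and 23.8 CPM, the nuclease Exo1 at 12.1 and 18.4 CPM, and Rad51ap1, which acts in homologous recombination, at 14.1 and 21.9 CPM. Uhrf1, which carries DNA methylation to the new strand, was at 38.3 and 52.2 CPM, and Slbp, which binds histone mRNA, was at 33.3 and 46.0 CPM. Lig1 (1.67), Tk1 (1.69) and Fbxo5 (1.70) were the 3 members that kept a ratio of 1.5 or more in Pdgfra-positive cells.

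**Figure D2:**
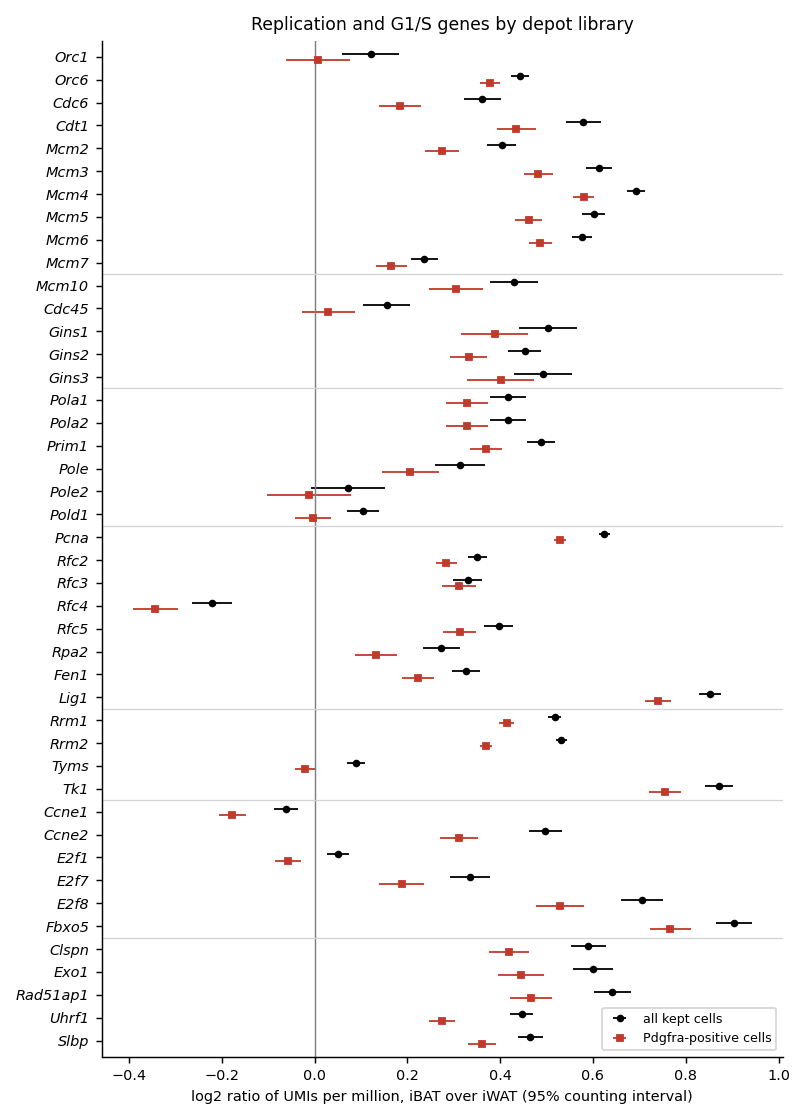
Log2 ratio of CPM, iBAT over iWAT (x axis), for each of the 44 genes in role order (y axis), in all kept cells (black) and in Pdgfra-positive cells (red), with 95% counting intervals as bars. Nearly all points lie right of 0, those for Rfc4 and Ccne1 lie left of it in both sets of cells, and the red points lie left of the black ones.

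Per cell, the members were spread unevenly. To compare cells at equal depth, each was thinned at random to 10000 UMIs, which left out 5588 shallower iWAT cells and 0 iBAT cells. At least 1 member UMI was found in 99.2% of iWAT cells and 99.6% of iBAT cells, and in 98.4% to 100% of the cells of each marker group examined, so this share told no group from another. The median cell had 10 member UMIs in iWAT and 14 in iBAT. The lowest 10% of cells had 3 or fewer in both libraries, and the top 10% had at least 35 in iWAT and 46 in iBAT. A sum of 20 or more was reached by 27.5% (26.9 to 28.1) of iWAT cells and 39.1% (38.5 to 39.7) of iBAT cells. At 50 or more the shares were 1.68% (1.52 to 1.85) and 7.72% (7.41 to 8.04). In Pdgfra-positive cells the share at 20 or more was 30.7% (29.97 to 31.42) in iWAT and 39.5% (38.9 to 40.1) in iBAT. Without thinning, 39.3% of iWAT and 65.7% of iBAT cells reached 20 UMIs. Over all thinned cells the libraries thus met at the low end and parted at the high end. In the matched windows of UMIs per cell described above, the share of Pdgfra-positive cells at 20 or more was higher in iWAT in 2 of 6. It was 29.7% in iWAT against 22.4% in iBAT at 15000 to 20000 UMIs and 34.3% against 31.4% at 20000 to 25000, and at 30000 to 40000 it was 35.6% against 48.4%. Among cells at 20 or more, doublets were called in 2.17% (iWAT) and 4.18% (iBAT), beside 2.04% and 3.39% of all thinned cells.

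**Figure D3:**
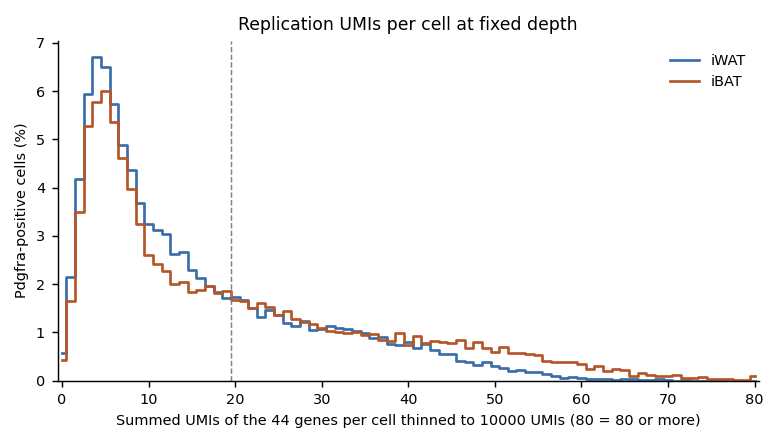
Share of Pdgfra-positive cells (y axis, %) with each summed count of the 44 genes after thinning to 10000 UMIs per cell (x axis, UMIs), for iWAT (blue) and iBAT (orange), with a dashed line at the threshold of 20. Both curves peak below 10 UMIs, and the iBAT curve lies above the iWAT curve beyond about 40 UMIs.

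The members were set against 20 mitotic genes, such as Mki67, Cdk1 and Ccnb1, none of which is a member. Both lists were chosen with earlier results of these data known, so this describes the members and does not test their label. Pdgfra-positive thinned cells were binned by their summed mitotic UMIs, a measure the list did not use. In iWAT the mean number of member UMIs was 5.12 in the 2774 cells with 0 to 1 mitotic UMIs, 7.58 at 2 to 4, 17.3 at 5 to 14, 25.4 at 15 to 39 and 20.5 at 40 or more. In iBAT the same means were 5.87, 8.83, 21.5, 33.0 and 27.0. The mean of member UMIs therefore climbed with mitotic UMIs and was lower again in the bin with the most of them, in both libraries. Cells with at least 20 member UMIs made up 1.41% and 2.17% of the lowest mitotic bin in iWAT and iBAT, and 57.7% and 68.3% of the bin of 15 to 39. At 40 or more this share was lower in iWAT, 47.5% (45.6 to 49.3), but not in iBAT, 70.5% (69.3 to 71.7). The bins held from 17.7% to 24.5% of the iWAT cells and from 16.9% to 22.5% of the iBAT cells. The bin of 40 or more held 17.7% (17.1 to 18.3) in iWAT and 21.2% (20.7 to 21.7) in iBAT, and the bin of 5 to 14 held 19.6% and 16.9%. In each of the 5 bins the mean was higher in iBAT. Called doublets were 3.76% and 6.59% of the cells in the bin of 15 to 39, more than in the bins at both ends, and the part of doublets in the pattern was not tested beyond leaving them out, which left 37 and 35 members highest there against 36 and 34 with them.

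The members did not share 1 profile along these bins, which order cells by mitotic UMIs and not by time. Of the 44, 34 had their highest mean at 15 to 39 mitotic UMIs in both libraries. The share of all genes highest in that bin is not given here, so the count has no background beside it. Cdc6 was highest in a lower bin, with 0.324 UMIs per cell at 5 to 14, 0.266 at 15 to 39 and 0.0766 at 40 or more in iWAT, and 0.381, 0.311 and 0.102 in iBAT. The cyclin Ccne2 was close to it, with 0.384 UMIs per cell at 15 to 39 and 0.0943 at 40 or more in iWAT, and 0.497 and 0.138 in iBAT. Between those bins Ccne2 dropped to 0.245 and 0.279 of its level, Cdc6 to 0.288 and 0.328, and Ccne1 to 0.562 and 0.513. These genes of licensing and S phase entry had the steepest loss among the members in the cells richest in mitotic mRNA.

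At the other end stood Rfc2, Rfc4, Rfc5, Rrm1, Tyms, Tk1 and Fbxo5, which were highest at 40 or more mitotic UMIs in both libraries. Tk1 had 0.475 UMIs per cell at 15 to 39 and 0.583 at 40 or more in iWAT, and 0.743 and 0.958 in iBAT, a ratio of 1.23 and 1.29 between the bins. Rrm1 gained less, with 1.84 and 1.94 UMIs per cell in iWAT and 2.35 and 2.66 in iBAT. In iWAT and iBAT the ratio was 1.01 and 1.02 for Rfc2, 1.02 and 1.09 for Rfc4, and 1.01 and 1.06 for Fbxo5. No interval was computed for these ratios, so the place in this set of genes with a ratio near 1 is uncertain. Of the nucleotide supply genes 3 of 4 were in this set, and of the clamp, loader and lagging strand genes 3 of 8. No licensing, polymerase or checkpoint gene was in it. Cdt1 and Gins3 had their highest bin at different places in the 2 libraries, Cdt1 at 15 to 39 in iWAT and 5 to 14 in iBAT, and Gins3 at 15 to 39 in iWAT and 40 or more in iBAT. Contrast also differed among members. Rad51ap1 rose from 0.00649 UMIs per cell at 0 to 1 mitotic UMIs to 0.292 at 15 to 39 in iWAT, a ratio of 44.9, and from 0.0153 to 0.397 in iBAT, a ratio of 26.0. The lowest iWAT bin has 2774 cells, so few UMIs of Rad51ap1 lie under its ratio, which carries no interval. E2f1 was at 0.357 and 0.611 in iWAT and at 0.245 and 0.679 in iBAT, ratios of 1.71 and 2.78, the lowest among the members. These placements depend on the bins. Without thinning only 4 members peaked at 15 to 39 in either library. After thinning to 5000 UMIs 7 and 21 did, and with the bin edges also halved, a setting added after the data were seen, 34 did in each.

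**Figure D4:**
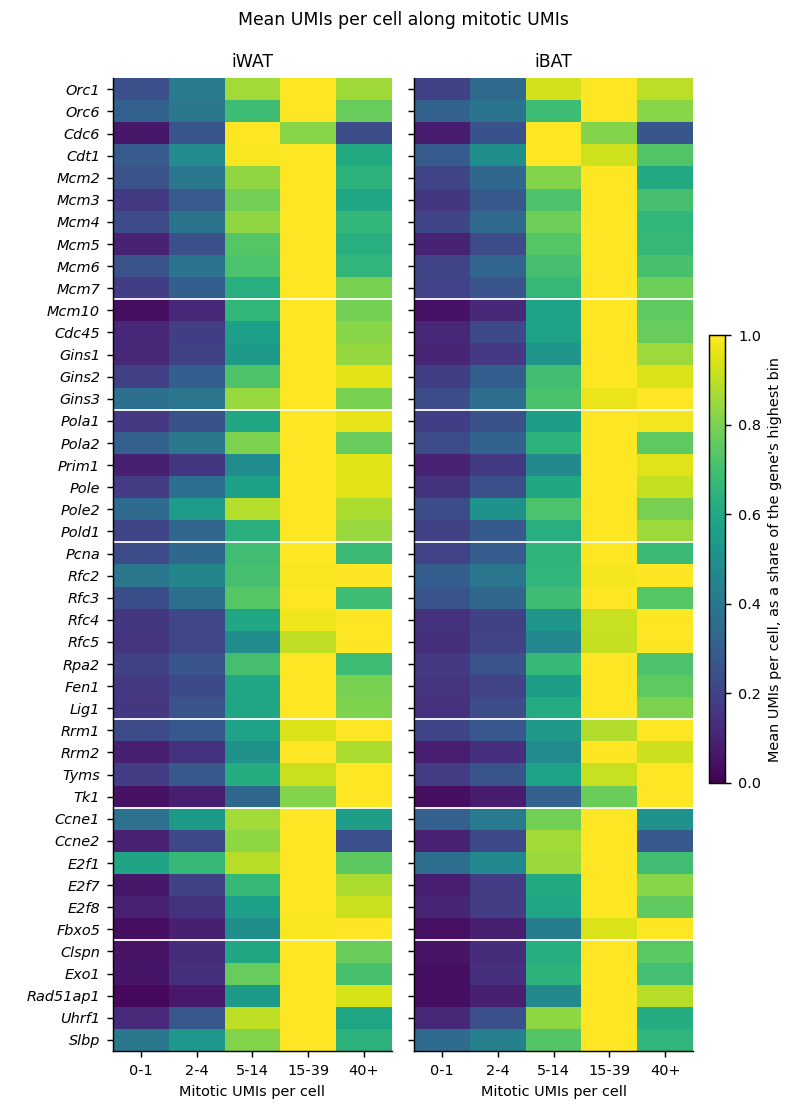
Mean UMIs per cell of each of the 44 genes (rows, in role order) in Pdgfra-positive cells thinned to 10000 UMIs and binned by summed mitotic UMIs (columns), as a share of the highest bin of that gene, for iWAT (left) and iBAT (right). Most rows are brightest at 15 to 39 mitotic UMIs, Cdc6 is brightest at 5 to 14, and Tk1, Rrm1 and Tyms are brightest at 40 or more.

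Members also varied together from cell to cell. Over 15671 iWAT and 25927 iBAT Pdgfra-positive cells thinned to the same depth, Pearson r between log2(UMI + 1) of a member and that of the other 43 summed had a median of 0.33 in iWAT and 0.37 in iBAT. These cells share a library, and few UMIs can lower r, which was not tested. The lowest r was that of Pole2, 0.10 and 0.11, and the highest that of Rrm2, 0.65 and 0.69, followed by Pcna with 0.61 and 0.67. For 40 of 44 members in iWAT and 41 in iBAT, r with the other members was larger than r with the mitotic sum. Rrm1, Tyms and Tk1 were exceptions in both libraries, and Rfc5 in iWAT. Tk1 had r of 0.35 with the members and 0.38 with the mitotic sum in iWAT, and 0.44 and 0.48 in iBAT. Rrm1, Tyms and Tk1 were also among the members highest in the bin richest in mitotic UMIs, and both measures use the same cells and genes.

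Outside the list, 9578 genes with a UMI in at least 5% of these cells in both libraries were ranked by the smaller of their 2 r values with the member sum. The 15 most alike were Pclaf, Hmgb2, Top2a, Cdk1, Ptma, Smc2, H2az1, Tmpo, Ccna2, Fam111a, Smc4, Birc5, Dek, Tuba1b and Cks2. Pclaf, which encodes a factor bound to the sliding clamp, led with 0.71 in iWAT and 0.76 in iBAT. Hmgb2, a chromatin protein, followed with 0.62 and 0.64. Of these 15, 4 belong to the mitotic list (Top2a, Cdk1, Ccna2 and Birc5) and 0 to the list of further replication genes. The median of the smaller r was 0.35 for the 20 mitotic genes and 0.22 for the 50 further replication genes ranked. Genes of the lists differ in level and r was not adjusted for level, so these medians do not rank the lists. Over all ranked genes the median of the smaller r was -0.0086, and 101 genes reached 0.3 in both libraries.

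The promoter letters of the members were read because the genes moved together and E2F factors are known to bind such promoters. RefSeq windows of 300 bases, from 250 before to 50 after the start, were found for 37 of the 44 members and 27025 genes in all. They were searched on both strands for the E2F letters TTTCCCGC, TTTGGCGC, TTTCGCGC or TTTGCCGC. At least 1 match was present for 16 of 37 members (43.2%) and for 2.61% of all genes. The shares were 32.6% of 43 other replication genes, 29.4% of 17 G1 control genes and 1 of 17 mitotic genes. The mitotic genes held more of the letters TTTGAA or TTCGAA of the cell cycle homology region, in 13 of 17 (76.5%), against 8 of 37 members (21.6%) and 21.7% of all genes. CCAAT was present for 64.9% of the members, 88.2% of the mitotic genes and 41.1% of all genes. Of the 7 members highest at 40 or more mitotic UMIs, 6 had a window and 0 of them held the E2F letters, against 16 of the 31 other members with one. Some of the 7 were only slightly higher in that bin than in the one below, and the set depends on the bins. No conclusion is drawn from this contrast. Matches by letters are a description, and a window without them says only that they are not there.

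The windows printed here hold the 250 bases before the start of a gene. They were taken from RefSeq (GRCm38.p6) and found at exactly 1 place in GRCm39, whose coordinates are given. Mcm5, Pola1, E2f7 and Uhrf1 are shown as members of 4 roles with E2F letters before the start, and capitals mark those letters. Of the licensing genes with such letters, Mcm5 had the highest r with the other members. Pola1, E2f7 and Uhrf1 were the only members of their roles with them. Gins3 and Rfc3, picked in the same way with matches 41 and 10 bases before the start, are not printed. Rrm1 is shown beside the 4 because, at that depth and with those bins, it was highest in the cells richest in mitotic UMIs. It held no E2F letters, and capitals mark CCAAT there. Mcm5 lies at chr8:75835887-75836136 on the plus strand and holds 2 overlapping matches that begin 153 and 149 bases before the start. Pola1 lies at chrX:92675762-92676011 on the minus strand, with a match 138 bases before the start. E2f7 lies at chr10:110581050-110581299 and Uhrf1 at chr17:56611063-56611312, both on the plus strand, with matches 198 and 185 bases before the start. Rrm1 lies at chr7:102090652-102090901 on the plus strand, with CCAAT 91 and 45 bases before the start.
Mcm5: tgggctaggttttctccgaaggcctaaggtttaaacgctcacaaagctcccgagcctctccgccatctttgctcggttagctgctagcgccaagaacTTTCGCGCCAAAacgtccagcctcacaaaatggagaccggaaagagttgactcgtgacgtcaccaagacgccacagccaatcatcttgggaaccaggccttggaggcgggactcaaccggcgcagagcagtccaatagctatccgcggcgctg
Pola1: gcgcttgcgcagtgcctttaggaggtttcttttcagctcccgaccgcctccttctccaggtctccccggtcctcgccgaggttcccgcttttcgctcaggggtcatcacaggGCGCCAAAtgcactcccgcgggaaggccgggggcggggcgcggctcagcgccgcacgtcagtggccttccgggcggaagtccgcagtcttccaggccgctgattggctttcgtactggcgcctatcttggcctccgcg
E2f7: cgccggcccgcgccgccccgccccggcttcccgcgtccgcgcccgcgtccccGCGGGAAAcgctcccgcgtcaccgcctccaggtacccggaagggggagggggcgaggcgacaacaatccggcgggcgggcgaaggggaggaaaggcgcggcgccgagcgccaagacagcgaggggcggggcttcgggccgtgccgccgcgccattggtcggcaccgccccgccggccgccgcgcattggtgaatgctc
Uhrf1: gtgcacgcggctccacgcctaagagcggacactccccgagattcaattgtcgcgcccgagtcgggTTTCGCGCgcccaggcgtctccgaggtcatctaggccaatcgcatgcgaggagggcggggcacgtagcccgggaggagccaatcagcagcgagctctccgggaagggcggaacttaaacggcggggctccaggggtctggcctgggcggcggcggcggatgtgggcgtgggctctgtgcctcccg
Rrm1: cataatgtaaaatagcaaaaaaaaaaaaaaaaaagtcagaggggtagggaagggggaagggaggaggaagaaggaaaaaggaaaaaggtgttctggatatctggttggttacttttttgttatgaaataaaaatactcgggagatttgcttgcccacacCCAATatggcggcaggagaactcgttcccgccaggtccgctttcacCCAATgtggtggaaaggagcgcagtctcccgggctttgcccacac

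Cells with UMIs of other lineage markers were examined for these genes in each library. The groups below hold cells with at least 1 UMI of a marker, they overlap, and each is set against Pdgfra-positive cells of the same library without that marker. In iWAT, 6333 cells had a UMI of Epcam, the epithelial adhesion molecule, and the keratins Krt8 and Krt18 were at 489 and 632 CPM in them against 21.9 and 26.0 CPM in Pdgfra-positive cells. Their members summed to 1086 CPM, 0.675 (0.670 to 0.680) of the level in the comparison cells. All 44 members were lower, where 48.5% of all genes were, and 21 of 44 were lower by 1.5-fold or more against 11% of all genes. The extremes were Ccne2 at 0.477 and Rfc3 at 0.998. With at least 3 Epcam UMIs the ratio was 0.529. A sum of 20 or more at fixed depth was reached by 17.9% of Epcam-positive cells and 30.7% of Pdgfra-positive ones. Epcam-positive cells were also shallower, with a median of 12794 UMIs against 18119, and the part of depth in their lower level was not tested. In iBAT only 111 cells had an Epcam UMI, Krt18, Cldn4 and Krt7 were at 0 in them and 91.0% had a Pdgfra UMI, so they are not read as epithelial.

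Sox10, a transcription factor of Schwann and other neural crest cells, marked different cells in each library. The 2887 Sox10-positive iWAT cells summed to 905 CPM, 0.566 of their comparison cells, with 36 of 44 members lower by 1.5-fold or more against 15.6% of all genes. Rrm2 was lowest in them, at 0.357. Of these cells 83.8% were Epcam-positive and Krt18 stood at 825 CPM. The 1138 Sox10-positive iBAT cells had Foxd3, a neural crest transcription factor, at 113 CPM, and Krt18 was at 0. Their members summed to 2210 CPM, 1.09 (1.08 to 1.10) of the comparison cells, with 0 of 44 higher by 1.5-fold or more against 8.06% of all genes. Uhrf1 was highest there, at 1.48. These iBAT cells had a median of 19338 UMIs against 27838 in Pdgfra-positive iBAT cells, and 53.9% had a Pdgfra UMI. Doublets were called in 10.6% of them against 3.59%. Pdgfra-positive iBAT cells of 15000 to 20000 UMIs stood at 1421 CPM, and the part of depth in the ratio of 1.09 was not tested. The 243 iWAT cells with Sox10 and no other marker had a ratio of 0.780 (0.756 to 0.804), and the 74 of them with at least 3 Sox10 UMIs had 0.674 (0.630 to 0.720). Sox10-positive iWAT cells were shallower than Pdgfra-positive ones, with a median of 12238 UMIs against 18119, and the parts of depth and of epithelial mRNA in their lower level were not tested.

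Ptprc, the pan-leukocyte gene, marked 187 iWAT and 296 iBAT cells, in which the macrophage gene Lyz2 was at 8300.4 and 8209 CPM. Their members summed to 1957 CPM in iWAT, 1.23 (1.20 to 1.27) of the comparison cells, and to 2341 CPM in iBAT, 1.15 (1.13 to 1.17). In iWAT 9 of 44 members were higher by 1.5-fold or more against 17.4% of all genes, led by Lig1 at 2.28. In iBAT 3 of 44 were, against 13.4% of all genes, led by Pcna at 1.82. Read against those shares, neither count is a result about the members. With at least 3 Ptprc UMIs and none of the other markers the ratio was 1.38 in 58 iWAT cells and 1.27 in 88 iBAT cells. Some of these cells carried Col1a1 and Pdgfra mRNA, as 26.2% of the iWAT and 52.7% of the iBAT Ptprc-positive cells had a Pdgfra UMI. Their median was 12877 UMIs in iWAT and 24951.5 in iBAT, against 18119 and 27838 in Pdgfra-positive cells. Doublets were called in 10.2% and 7.43% of them, against 1.99% and 3.59%. The parts of depth and doublets in these ratios were not tested.

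Pecam1, an endothelial adhesion molecule, marked 364 iWAT cells with 1577 CPM and 947 iBAT cells with 1958 CPM, ratios of 0.993 (0.974 to 1.01) and 0.960 (0.952 to 0.969). In iBAT 0 of 44 members were lower by 1.5-fold or more against 0.101% of all genes. Most of these cells also had a Pdgfra UMI, 58.8% in iWAT and 82.7% in iBAT. The endothelial genes Cdh5, Kdr and Tie1 were at 33.7, 8.17 and 3.63 CPM in the iWAT cells and 221, 57.5 and 47.8 CPM in the iBAT cells. Lyz2 was at 399 and 67.3 CPM. The iWAT level is therefore not read as that of endothelial cells. With at least 3 Pecam1 UMIs the iBAT ratio was 0.726 (0.710 to 0.743) in 216 cells. These 216 cells had a median of 22084 UMIs against 27838 in Pdgfra-positive iBAT cells, and 17.6% were called doublets against 3.59%. Their level was 1481 CPM. Pdgfra-positive iBAT cells were at 1513 CPM in the shallowest of the 4 depth groups, which ended at 22331 UMIs. In the window of 20000 to 25000 UMIs they were at 1752 CPM. The parts of depth and doublets in the lower level of the 216 cells were not tested. Adipoq, the adiponectin gene of adipocytes, gave 34 iWAT cells in which Plin1, Cfd and Cidec were at 0, while Fabp4 was at 80.7 CPM and Lpl at 223 CPM against 43.4 and 237 CPM in Pdgfra-positive iWAT cells. Their members summed to 1742 CPM, which is not read as a level of adipocytes. The 324 Adipoq-positive iBAT cells had Plin1 at 148 CPM, Fabp4 at 2818 CPM and Lpl at 3119 CPM, and their members summed to 1740 CPM, 0.852 (0.839 to 0.865) of the comparison cells. Of the 44 members, 43 were lower in them, where 55.7% of all genes were, but 0 by 1.5-fold or more, against 1.14% of all genes. Most of these Adipoq-positive iBAT cells also had a Pdgfra UMI, 89.8% of them and 74.7% of those with at least 3 Adipoq UMIs. Their level was lower the more strictly they were defined. With at least 3 Adipoq UMIs the ratio was 0.504 (0.485 to 0.525) in 83 cells, and with none of the other markers it was 0.327 (0.295 to 0.360) in 21 cells. The share of cells with 20 or more member UMIs fell from 31.5% to 12.0% and 4.76% over these 3 definitions. The last share is 1 of 21 cells, with an interval of 0.12% to 23.8%.

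**Figure D5:**
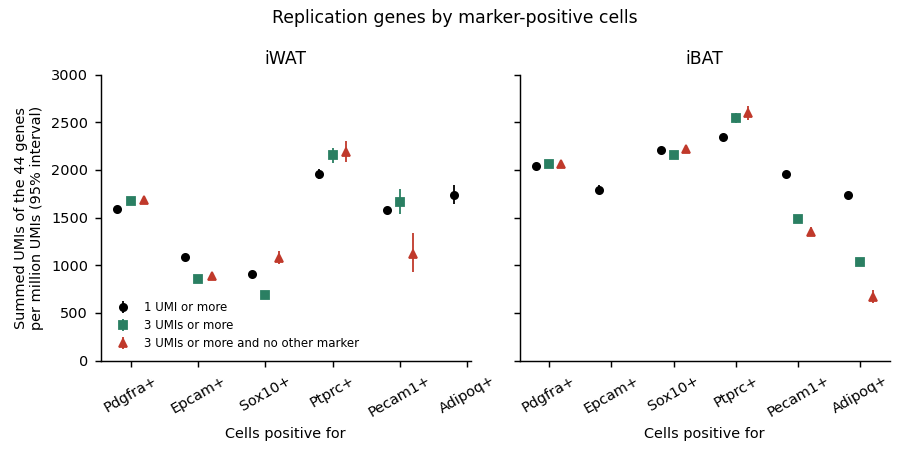
Summed level of the 44 replication genes (y axis, CPM, with 95% counting intervals) in cells positive for each of 6 markers (x axis), in iWAT (left) and iBAT (right), by 3 definitions of positive. Groups of fewer than 10 cells are not drawn. Among the groups drawn, Epcam-positive and Sox10-positive cells lie lowest in iWAT, and strictly defined Adipoq-positive cells lie lowest in iBAT at 667 CPM.

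Other genes of replication were also higher in iBAT over all kept cells. Of 55 further replication genes, 46 were higher in iBAT, beside 56.4% of all genes, and 9 of them by 1.5-fold or more, beside 9.47%, with a median log2 ratio of 0.28. The 9 included Dnmt1, the maintenance DNA methyltransferase, at 45.7 CPM in iWAT against 76.6 in iBAT, and Timeless, which protects the fork, at 6.99 and 12.7 CPM. Of the 20 mitotic genes 17 were higher in iBAT, with a median of 0.37. The 25 genes that control G1 split evenly, with 13 higher in iBAT and a median of 0.03. Among them Ccnd1, cyclin D1, was at 169 CPM in iWAT against 442 in iBAT, and Cdkn2b, an inhibitor of cyclin D kinases, was at 28.3 and 11.4 CPM. In Pdgfra-positive cells the medians of all 3 lists were lower, whereas Ccnd1 was at 128 and 419 CPM, a ratio of 3.28 there against 2.61 over all kept cells. In those cells 44 of the 55 further replication genes were higher in iBAT, beside 56.7% of all genes, and 3 by 1.5-fold or more, beside 8.75%, with a median of 0.17 and a summed ratio of 1.16. Of the mitotic genes 14 of 20 were higher there, with a median of 0.24 and a summed ratio of 1.17, and of the G1 control genes 11 of 25, with a median of -0.05. In the matched windows of UMIs per cell the summed mitotic level was higher in iWAT in 3 of 6, with 1826 against 1563 CPM at 15000 to 20000 UMIs, 1988 against 1654 CPM at 20000 to 25000 and 2941 against 2628 CPM at 40000 to 70000.

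Cells rich in member UMIs were also compared with cells poor in them within each library, as a description of what goes with these genes. Pdgfra-positive thinned cells with 0 to 4 member UMIs numbered 3064 in iWAT and 4306 in iBAT, and those with 20 or more numbered 4810 and 10253. Of the 55 further replication genes 47 in iWAT and 48 in iBAT were at least 2-fold higher in the rich cells, and 0 were lower by that much. All 20 mitotic genes were at least 2-fold higher in both libraries, with a median ratio of 12.2 in iWAT and 20.3 in iBAT, against 4.90 and 5.45 for the further replication genes. Of all genes 5.71% in iWAT and 5.96% in iBAT were higher by that much, and 0.787% and 1.91% were lower. Chaf1b, a chaperone that places histones on new DNA, was 13.2 and 16.4 times higher, and Gmnn, the inhibitor of Cdt1, 8.80 and 16.3 times. Of the G1 control genes 7 were at least 2-fold higher in both libraries. They were Rbl1, E2f2, Tfdp1, Cdkn2c, Cdkn2d, Lin9 and Lin54. Cdkn2c and Cdkn2d, inhibitors of cyclin D kinases, were 3.07 and 2.74 times higher in iWAT and 3.46 and 3.60 times higher in iBAT. Their relatives Cdkn2a and Cdkn2b ran the other way, at 0.449 and 0.429 of the level in the poor cells in iWAT and at 0.489 and 0.396 in iBAT. Cyclin D2 was lower in the rich cells, with 1013 against 637 CPM in iWAT and 962 against 581 CPM in iBAT, whereas cyclin D1 was higher, with 96.1 against 138 CPM and 281 against 482 CPM. Cdkn1a, the p21 inhibitor, differed less, at 0.781 and 0.902. Only Cdkn1c and Cdk6 of the 25 G1 control genes had ratios on opposite sides of 1 in the 2 libraries. Cdkn1c, another inhibitor, had 1.26 (1.01 to 1.58) in iWAT and 0.337 (0.281 to 0.404) in iBAT, on 120 to 273 UMIs per group of cells, and the kinase Cdk6 had 0.854 and 1.05.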

How the data were processed

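Whole transcriptomes of single cells were measured in 1 BD Rhapsody library per depot. The values deposited by the authors are unnormalized UMI counts in a gene by cell matrix, made on a hosted vendor pipeline. The submitters' processing notes name the build mm39 and Seurat 5.0.0, and the aligner, annotation and UMI correction are not given in the sources used here. Barcode and feature tables were read as names only. The files used here hold no tag per cell, so no cell was given a treatment.

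Cells were filtered as in the published methods, and counts were summed in Python 3.11.15 with numpy 2.4.6, scipy 1.17.1 and pandas 2.3.3. Ratios carry exact conditional binomial intervals, levels exact Poisson intervals and shares Clopper-Pearson intervals, all at 95%. Cells were thinned without replacement (seed 20) to 10000 UMIs. Doublets were called with Scrublet in scanpy 1.11.5 at an assumed rate of 0.08. Folds over all genes used a minimum of 10 CPM in at least 1 of the groups compared. The routines were tested on simulated data. Alternatives were other cell filters, scalings, depths, thresholds and marker definitions.

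The members and lists were chosen with earlier results of these data known. Named genes are all members, the 15 genes most alike and, from the further lists, genes picked after their values were seen. The windows printed were chosen by role and by r, and those of Gins3 and Rfc3 were left out.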

Additional observations from a re-analysis of the deposited data

How the results depend on the processing

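The higher summed level in iBAT kept its direction under every cell filter and scaling tried. The level was also higher in iBAT in each of the 4 depth groups of the same rank. The direction turned in 1 of 6 depth windows, which held unequal numbers of cells. With no upper limit on detected genes it was 2047 CPM in iBAT, a ratio of 1.4. With the mitochondrial limit at 15% it was 1474 and 2033 CPM, a ratio of 1.38. Scaled by the median ratio over genes (log2 shift 0.05) it was 1487 and 1991 CPM, a ratio of 1.34, with 6 members higher by 1.5-fold or more and a median log2 ratio of 0.39. By the trimmed mean of M-values it was 1475 and 2007 CPM, a ratio of 1.36, with 7 such members and a median of 0.41. The share of all genes past 1.5-fold under these scalings is not given here, so both counts lack a background. Pdgfra-positive cells alone gave 1589 and 2038 CPM, a ratio of 1.28 and a median of 0.33. In them 3 members were higher by 1.5-fold or more, beside 8.75% of all genes. Among them the log2 ratio of Pole2 was -0.013, of Pold1 -0.0035, of Tyms -0.020 and of E2f1 -0.057, all above 0 over all cells, and that of E2f1 was -0.0033 with the median scaling. In windows of UMIs per cell, chosen after the data were seen, the ratio was 1.09, 0.907, 1.04, 1.21, 1.36 and 1.20 from the shallowest window to the deepest. The cause was not tested in any of these.

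Thinned to 5000 UMIs, 6.37% of iWAT and 15.8% of iBAT cells had 20 or more member UMIs, and without thinning 39.3% and 65.7%. Shares were 50.1% and 59.5% at 10 or more, and 1.68% and 7.72% at 50 or more, so iBAT was higher at each. Members highest at 15 to 39 mitotic UMIs numbered 7 and 21 at 5000 UMIs and 4 and 4 without thinning. Fixed bin edges cover other cells at another depth, and with halved edges at 5000 UMIs 34 and 34 did. Of all genes, 12.9% were higher by 1.5-fold or more in iBAT and 13.1% in iWAT with a minimum of 1 CPM, 20.2% and 20.9% with none, and 8.19% in iWAT with 50 CPM.

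Ratios of marker-positive to Pdgfra-positive cells moved most with the definition of positive. With 3 UMIs or more, with no other marker, and with both conditions they were 0.529, 0.63 and 0.549 for Epcam in iWAT, 0.429, 0.78 and 0.674 for Sox10 in iWAT, 1.36, 1.29 and 1.38 for Ptprc in iWAT, and 1.05, 0.822 and 0.705 for Pecam1 in iWAT. In iBAT the same ratios were 1.25, 1.27 and 1.27 for Ptprc, 0.726, 0.674 and 0.663 for Pecam1, and 0.504, 0.411 and 0.327 for Adipoq. For Sox10 in iBAT they were 1.06 with 3 UMIs or more and 1.1 with no other marker. Without doublets the ratio was 0.665 for Epcam and 0.547 for Sox10 in iWAT and 1.11 for Sox10 in iBAT. With the mitochondrial limit at 15% it was 0.689 for Epcam and 0.578 for Sox10 in iWAT and 0.901 for Adipoq in iBAT, and with no upper gene limit 0.983 for Pecam1 in iBAT. The ratio changed side of 1 for Pecam1 in iWAT, where 24 cells had 3 UMIs or more (interval 0.965 to 1.13) and 10 of them no other marker. It also did for Adipoq in iWAT, which went from 1.10 to 0.219 with 3 UMIs or more, a definition met by 1 cell. No paired analysis was possible because each depot has 1 library and no result comes from a test.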

Other observations

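Some genes ran against the members from cell to cell. Among 9578 genes ranked over Pdgfra-positive cells at fixed depth, the lowest by the larger of the 2 r values with the member sum was App, which encodes the amyloid precursor protein, with -0.29 in iWAT and -0.26 in iBAT. The histone gene H2bc4 (-0.26 and -0.26), Igfbp7, which encodes a secreted binding protein (-0.27 and -0.26), Slfn5 (-0.26 and -0.32), Mxd4, a repressor of the Myc network (-0.26 and -0.37), and Ccnd2 (-0.25 and -0.27) came next. The matrix genes Col5a2, Col5a1, Fn1 and Sparc were among the 15 lowest as well. These genes were chosen after their values were seen.

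Cells removed by the filter also differed in the members. The upper gene limit removed 414 iBAT cells, which had a summed level of 2679 CPM and a median of 56531 UMIs, against 2028 CPM in the kept cells, and it removed 3 iWAT cells. The mitochondrial limit removed 215 iWAT cells with 664 CPM and 7 iBAT cells with 810 CPM. The 5588 kept iWAT cells too shallow for thinning had 1003 CPM, against 1504 CPM in the others.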
